A study of Bos taurus with 12 samples.

Results

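Expression of 8 genes of FGF, BMP and NODAL signalling was followed in cattle conceptuses of day 16 of gestation: the ligand genes BMP7 and BMP4, the co-receptor gene CRIPTO (also written TDGF1), the receptor genes FGFR1 and FGFR2, and the target genes ID1, ID2 and ID3. All probe sets that the array annotation assigns to exactly 1 of these symbols were taken, whatever their level, which gave 16 probe sets of the 8 genes, out of 9155 genes named on the array. Embryos of 3 kinds were moved to synchronized recipient cows as blastocysts on day 7, and elongated conceptuses matched for length were recovered on day 16. In the AI group the embryos had formed in vivo in inseminated donors. In the IVP group fertilization and culture both took place in vitro, and in the SCNT group (somatic cell nuclear transfer) the embryos were cloned from fibroblast nuclei placed in oocytes. The donor fibroblasts themselves (FB) make up the last group. There were 3 arrays per group, 12 in all. RNA came from 10 mg of conceptus tissue per sample, so a level is a mean over all cells in it. Neither breed, sex and number of fibroblast lines, nor the use of separate animals or pools, is given by the labels. The p-values therefore measure only the spread between these arrays, part of which may be technical.

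FGFs bind receptor tyrosine kinases with heparan sulfate as a cofactor and signal through RAS and the MAP kinases; in ruminants, FGFs of the uterine lumen reach the trophoblast, where FGFR2 is a receptor. BMPs bind pairs of type I and type II receptors and signal through SMAD1, SMAD5 and SMAD9 together with SMAD4, and the ID genes are among their most direct targets; ID proteins lack a DNA-binding region and hold E proteins such as TCF3 and TCF12 away from DNA. NODAL signals through activin receptors and SMAD2 and SMAD3 and needs CRIPTO, an anchored protein of the EGF-CFC family, as a co-receptor; it acts in the epiblast before and during gastrulation.

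Each array had 6359 to 6643 of 24016 probe sets above log2 4, and arrays of 1 conceptus group correlated at 0.978 or above across probe sets, which are not independent replicates. A level at or below log2 4 is treated here as not distinguishable from background, since the lowest value of the table, 2.42, is shared by many probe sets. Of 11 trophoblast markers on the array, 8 had a mean above log2 4 in each conceptus group and 0 had one in FB, while 10 of 12 fibroblast markers did in FB and 2 did in the conceptuses, so FB arrays had fibroblast levels although 1 label field calls their tissue an elongated embryo. The epiblast markers POU5F1, SOX2 and DNMT3B lay between 2.42 and 2.54 on every array. The signal of labelled spike-in controls was 6.57 to 7.57 in AI, 7.00 to 7.58 in IVP, 6.62 to 6.79 in SCNT and 6.12 to 6.33 in FB, with AI 2, IVP 2 and IVP 3 the highest. The gap between the 3′ and 5′ GAPDH probe sets, a measure of RNA quality, was 0.21 to 0.38 in AI, 0.35 to 0.89 in IVP and 0.28 to 0.45 in SCNT. In FB it was 0.011 to 0.060, below every conceptus array.

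Of the 16 probe sets, 7 lay above log2 4 on at least 3 arrays and were tested: both of BMP7 and 1 each of CRIPTO, FGFR2, ID1, ID2 and ID3. The other 9 are described by their values. A probe set that is bright in 1 group alone enters the test through that group, so the tested probe sets do not stand for all 16. Between SCNT and AI, 1 of the 7 was higher in SCNT and 3 were lower at a limma adjusted p under 0.05, while 27.6% of all 6892 probe sets tested were called, 16.2% higher and 11.4% lower. Between IVP and AI, 2 were higher in IVP and 2 lower, with 17.9% of all probe sets called, 8.42% higher and 9.49% lower. Between SCNT and IVP, 1 was lower in SCNT and 0 higher, with 0.580% of all called, 0.232% higher and 0.348% lower. Of those 40 calls over all probe sets, 16 were higher and 24 lower in SCNT, or 10 and 25 after each array was centred on its median. The comparisons of IVP and of SCNT with AI share the AI arrays, so calls that recur in both are not independent.

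**Figure D1:**
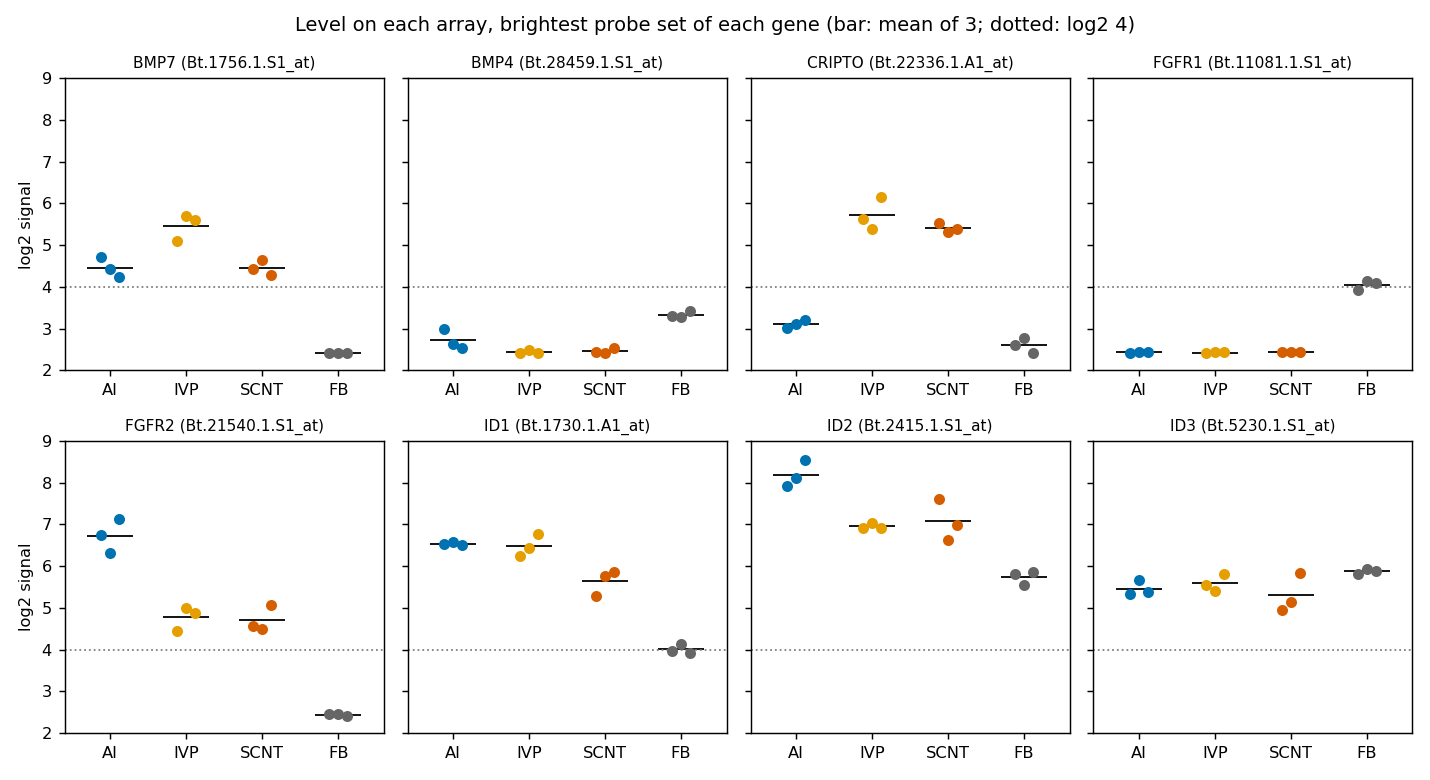
Log2 signal (vertical axis) of the brightest probe set of each of the 8 genes on each of the 12 arrays, with 3 points per group, a bar at the group mean and a dotted line at log2 4. FGFR2 is high in the 3 AI arrays, from 6.31 to 7.13, and CRIPTO crosses the dotted line in IVP and SCNT arrays and stays below it in AI and FB.

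BMP7 (NCBI Gene 540595), a ligand gene of the BMP family, was highest in IVP conceptuses. On the brighter of its 2 probe sets the level was 4.71, 4.42 and 4.24 in AI, 5.10, 5.69 and 5.60 in IVP, 4.43, 4.64 and 4.28 in SCNT, and 2.42 on each FB array. All IVP arrays stood above all AI and SCNT arrays, AI and SCNT overlapped, and FB was at the lowest value of the table. BMP7 was 2.01-fold higher in IVP than in AI (95% interval 1.51 to 2.68, limma adjusted p = 0.00531). It was 2.02-fold lower in SCNT than in IVP (1.52 to 2.70, limma adjusted p = 0.0479). SCNT and AI differed by -0.01 log2 units (95% interval -0.43 to 0.41, limma adjusted p = 0.976). In bulk tissue, fewer cells of a type and less RNA per cell cannot be told apart.

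The BMP7 difference between SCNT and IVP stood close to the threshold and was lost without SCNT 1, SCNT 2, SCNT 3, IVP 2 or IVP 3, with limma adjusted p from 0.134 to 0.167. It was kept without IVP 1. The difference between IVP and AI was kept when any single array was left out. It was lost without a filter on low values (limma adjusted p = 0.0657). With the GAPDH gap as a covariate it was 0.85 log2 units (limma adjusted p = 0.0758), and without the 3 arrays of highest spike-in signal it was 0.62 (limma adjusted p = 0.190).

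The second BMP7 probe set was dimmer, at 3.61, 3.75 and 3.39 in AI, 3.67, 4.13 and 4.29 in IVP, 3.43, 3.56 and 4.07 in SCNT, and 2.63, 2.62 and 2.44 in FB. Its highest conceptus arrays were also IVP arrays, yet the conceptus groups overlapped one another, and all of them lay above FB. This probe set passed log2 4 on IVP 2, IVP 3 and SCNT 3 alone and entered the test through them. The filter therefore favoured a level higher in IVP than in AI. The difference between IVP and AI was 0.45 log2 units (95% interval -0.0062 to 0.91, limma adjusted p = 0.156), which did not pass. Within an array the first probe set exceeded the second by 0.88 ± 0.22 in AI, 1.44 ± 0.13 in IVP and 0.76 ± 0.48 in SCNT (log2 units, mean ± SD, n = 3 each), so the gap was widest in IVP. The dimmer probe set lies near background, and the difference in gap was not tested.

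BMP4 (NCBI Gene 407216), another BMP ligand gene, had 1 probe set and did not reach log2 4 on any array. Its values were 2.99, 2.63 and 2.54 in AI, 2.42, 2.47 and 2.42 in IVP, 2.45, 2.42 and 2.54 in SCNT, and 3.30, 3.28 and 3.41 in FB. The FB arrays were the highest, but no group had a level above background, so BMP4 was not tested and no fold is given.

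CRIPTO (NCBI Gene 784029) was above background in both conceptus groups made in vitro and below it in AI. Its probe set read 3.01, 3.10 and 3.20 in AI, 5.62, 5.40 and 6.14 in IVP, 5.53, 5.31 and 5.39 in SCNT, and 2.62, 2.77 and 2.42 in FB. Every IVP and SCNT array stood more than 2 log2 units above every AI array, and the FB arrays were lowest. Because the AI mean lay below log2 4, AI arrays were set to 4 for the fold, which is then a lower bound. CRIPTO entered the test through the IVP and SCNT arrays alone. The filter therefore fixed the direction in which it could pass against AI.

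CRIPTO was at least 3.30-fold higher in IVP than in AI (log2 difference 2.62, 95% interval 2.22 to 3.01, limma adjusted p = 1.07e-05). It was at least 2.66-fold higher in SCNT than in AI (log2 difference 2.31, 1.91 to 2.71, limma adjusted p = 2.84e-05). These differences ranked 6 and 21 among all rises of the 6892 probe sets in the respective comparison. IVP and SCNT differed by -0.31 log2 units in SCNT against IVP (95% interval -0.71 to 0.09, limma adjusted p = 0.510). Both calls against AI held in all alternatives tried, including those on spike-in signal and GAPDH. The epiblast markers on the array were at background in all groups, beside this co-receptor gene of a pathway that acts in the epiblast; the cells that carry the CRIPTO signal were not identified.

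FGFR1 (NCBI Gene 281768), a receptor gene of mesenchymal cells among others, was not above background in the conceptuses. The brighter of its 2 probe sets read 2.42 to 2.43 on all 9 conceptus arrays and 3.93, 4.13 and 4.09 in FB. Only FB arrays rose from the lowest value, and 2 of them passed log2 4, which is 1 fewer than the test requires. The second FGFR1 probe set stayed between 2.42 and 2.47 on all 12 arrays, so only 1 of 2 probe sets registered the fibroblast level.

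FGFR2 (NCBI Gene 404193) was highest in AI conceptuses, lower in IVP and SCNT, and lowest in FB. The brightest of its 5 probe sets read 6.76, 6.31 and 7.13 in AI, 4.45, 5.01 and 4.88 in IVP, 4.56, 4.49 and 5.06 in SCNT, and 2.44, 2.45 and 2.42 in FB. The lowest AI array stood 1.25 above the highest SCNT array and 1.30 above the highest IVP array, IVP and SCNT arrays interleaved, and no conceptus array came near FB.

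FGFR2 was 4.08-fold lower in SCNT than in AI (95% interval 2.84 to 5.84, limma adjusted p = 2.53e-04) and 3.87-fold lower in IVP than in AI (2.70 to 5.55, limma adjusted p = 5.07e-04). These falls ranked 82 and 65 of those in the respective comparison. SCNT and IVP differed by -0.07 log2 units (95% interval -0.59 to 0.44, limma adjusted p = 0.935). Both calls against AI held in all alternatives tried.

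The remaining 4 FGFR2 probe sets did not follow this one. They read 2.42 to 2.62 on all 12 arrays, AI included, so the FGFR2 result rests on 1 of 5 probe sets. The part of the transcript that each covers was not analysed here.

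ID1 (NCBI Gene 497011), a BMP target, was lower in SCNT than in AI. Its brighter probe set read 6.53, 6.59 and 6.50 in AI, 6.25, 6.43 and 6.78 in IVP, 5.28, 5.76 and 5.86 in SCNT, and 3.97, 4.14 and 3.91 in FB. The SCNT arrays lay below all AI and IVP arrays, AI and IVP overlapped, and FB was lowest. ID1 was 1.87-fold lower in SCNT than in AI (95% interval 1.42 to 2.47, limma adjusted p = 0.00514), a call lost without a filter on low values (limma adjusted p = 0.0556). Against IVP the SCNT arrays were 0.85 log2 units lower, which did not pass in the fit of the 9 conceptus arrays (limma adjusted p = 0.0795) and passed with all 12 arrays in the fit (limma adjusted p = 0.0299). IVP and AI differed by -0.05 log2 units (95% interval -0.45 to 0.35, limma adjusted p = 0.868). The second ID1 probe set stayed at 2.42 to 2.44 on every array.

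ID2 (NCBI Gene 505025), whose product restrains E proteins, was highest in AI and lower in both IVP and SCNT. The brighter probe set read 7.93, 8.11 and 8.54 in AI, 6.91, 7.04 and 6.91 in IVP, 7.62, 6.62 and 6.99 in SCNT, and 5.81, 5.54 and 5.86 in FB. All AI arrays stood above all IVP and SCNT arrays, SCNT 1 was closest to AI, and SCNT overlapped IVP.

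ID2 was 2.17-fold lower in SCNT than in AI (95% interval 1.51 to 3.12, limma adjusted p = 0.00665) and 2.36-fold lower in IVP than in AI (1.64 to 3.39, limma adjusted p = 0.00612). SCNT and IVP differed by 0.12 log2 units (95% interval -0.41 to 0.64, limma adjusted p = 0.891). The fall in IVP was -1.17 with the GAPDH gap as a covariate (limma adjusted p = 0.0629) and -1.32 without the 3 arrays of highest spike-in signal (limma adjusted p = 0.109), so its size changed little while the call was lost. Without a filter on low values neither ID2 call against AI was made (limma adjusted p = 0.0837 in SCNT and 0.0884 in IVP).

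The second ID2 probe set, which was not tested, read 3.01, 3.78 and 3.84 in AI, 3.43, 2.71 and 3.15 in IVP, 3.45, 2.85 and 2.66 in SCNT, and 2.46, 2.42 and 2.42 in FB. Its 2 highest arrays were AI arrays and the FB arrays were lowest, with AI, IVP and SCNT overlapping below background.

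ID3 (NCBI Gene 538690), the third target, did not separate the conceptus groups. Its probe set read 5.33, 5.66 and 5.38 in AI, 5.56, 5.40 and 5.82 in IVP, 4.96, 5.14 and 5.84 in SCNT, and 5.82, 5.94 and 5.88 in FB. The conceptus groups overlapped one another, and SCNT spread widest. SCNT and AI differed by -0.14 log2 units (95% interval -0.63 to 0.34, limma adjusted p = 0.666), IVP and AI by 0.14 (-0.35 to 0.63, limma adjusted p = 0.694), and SCNT and IVP by -0.28 (-0.77 to 0.20, limma adjusted p = 0.637).

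Some of the genes used as cell type markers moved with these groups, and others did not. Over 8 leukocyte markers on the array the summed level, the log2 of the sum of linear values, was 9.41 to 10.12 in AI, 5.91 to 7.21 in IVP and 5.86 to 6.96 in SCNT. In AI, 3 of the 8 had a mean above log2 4 (ITGB2, CD48 and RAC2), whereas the defining marker PTPRC was 2.42 to 2.51 on every array and CD3E and CORO1A were 2.42 to 2.52. The mesoderm and trophoblast factor gene HAND1 read 8.0 to 8.33 in AI, 5.45 to 7.03 in IVP and 5.90 to 6.93 in SCNT. The summed level of 10 hypoblast and yolk sac markers, set mostly by APOA1, was 11.86 to 12.37 in AI, 12.04 to 12.29 in IVP and 11.59 to 11.96 in SCNT, while 5, 4 and 3 of them had means above log2 4. Among them the retinol carrier gene RBP4 read 6.97 to 7.32 in AI, 6.15 to 6.67 in IVP and 5.05 to 6.03 in SCNT, and the fibrinogen gene FGG 3.72 to 6.11 in AI, 2.99 to 4.10 in IVP and at most 2.62 in SCNT. APOA2 was below AI in SCNT and overlapped AI in IVP. GATA6 overlapped AI in both, at 7.66 to 7.97 in AI, 7.67 to 7.77 in IVP and 7.51 to 7.79 in SCNT. APOA1 did too, at 11.68 to 12.23, 11.92 to 12.18 and 11.45 to 11.84 in the same order. Over the 11 trophoblast markers the summed level was 14.96 to 15.22 in AI, 15.30 to 15.43 in IVP and 15.28 to 15.52 in SCNT. The trophoblast factor gene ASCL2 read 5.61 to 6.17 in AI, 6.64 to 7.68 in IVP and 7.11 to 7.80 in SCNT, and the keratin gene KRT18 and the glycoprotein gene PAG11 were also higher on every IVP and SCNT array than on any AI array. So was TEAD4, near background. SSLP1 went the other way in IVP, at 12.43 to 12.68 against 12.73 to 12.89 in AI, and overlapped AI in SCNT. IFNT2, PAG2, TFAP2A and PTGS2 overlapped AI in both, and KRT8 and ELF5 lay below log2 4. All 6 endometrial markers had means below log2 4 in every group. The part of the cells that carry these markers in the differences of CRIPTO, FGFR2, BMP7, ID1 and ID2 was not tested.

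**Figure D2:**
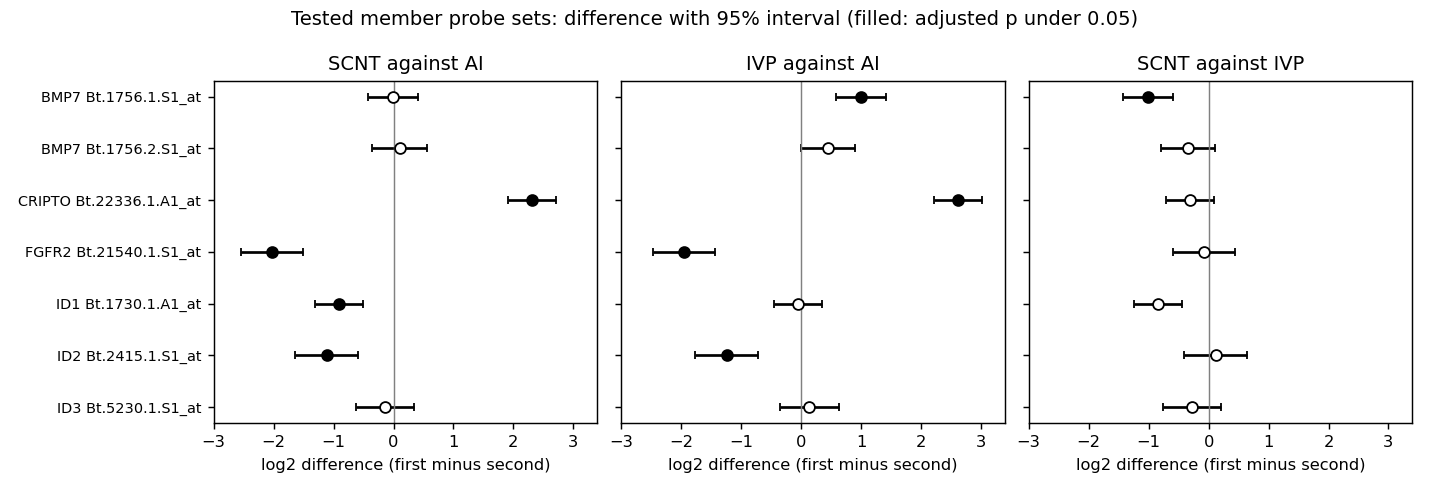
Log2 differences (horizontal axis) of the 7 tested probe sets for SCNT against AI, IVP against AI and SCNT against IVP, with 95% intervals from limma, a vertical line at 0 and filled points where the adjusted p was under 0.05. CRIPTO lies to the right, at 2.31 and 2.62 against AI, FGFR2 to the left, at -2.03 and -1.95, and the SCNT against IVP differences lie nearer 0, apart from BMP7 at -1.02 and ID1 at -0.85.

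The tested probe sets varied more between arrays of a group than most. The residual SD of FGFR2 was 0.34 log2 units and that of ID2 0.35, against a median of 0.20 over all tested probe sets. CRIPTO and ID1 had the lowest of the 7, both at 0.24.

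Against the donor fibroblasts the conceptuses had higher FGFR2, ID1, ID2 and BMP7. In the fit of all 12 arrays, 6 of the 7 tested probe sets were higher in AI than in FB and 0 were lower, with 77.2% of 8164 probe sets called, 41.6% higher and 35.6% lower. In IVP 6 were higher and 0 lower, with 78.7% called, 43.0% higher and 35.7% lower. In SCNT 6 were higher and 1 lower, with 79.9% called, 45.0% higher and 34.8% lower. The 3 comparisons share the FB arrays. The share called in either direction lies near that of all probe sets, while the member calls were mostly higher in the conceptuses. Whether this split by direction differs from that of all probe sets was not tested. FGFR2, CRIPTO and both BMP7 probe sets lay below log2 4 on all FB arrays and passed the filter through conceptus arrays alone. Where the conceptus group was above background, the filter fixed the direction in which they could pass. With values below log2 4 set to 4, the difference of CRIPTO in AI was 0. That of the second BMP7 probe set was 0 in AI, 0.14 in IVP (limma adjusted p = 0.104) and 0.022 in SCNT (limma adjusted p = 0.808).

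FGFR2 was at least 6.64-fold higher in AI than in FB, at least 1.72-fold in IVP and at least 1.63-fold in SCNT, where the FB arrays at background were set to log2 4. ID1 was 5.79-fold higher in AI, 5.59-fold in IVP and 3.10-fold in SCNT, with the FB mean just above log2 4. ID2 was 5.49-fold higher in AI, 2.33-fold in IVP and 2.53-fold in SCNT. The brighter BMP7 probe set was at least 1.37-fold higher in AI, at least 2.76-fold in IVP and at least 1.36-fold in SCNT. The CRIPTO rise was at least 3.30-fold in IVP and at least 2.66-fold in SCNT. In AI CRIPTO differed from FB by 0.51 log2 units (limma adjusted p = 0.0163) with both means below background, so no fold is given. That call was lost without AI 3 or FB 3, with the spike-in covariate (limma adjusted p = 0.113) with the GAPDH covariate (limma adjusted p = 0.149) and without a filter (limma adjusted p = 0.0553).

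Of the tested genes, ID3 had its highest mean in FB, as did the untested BMP4 and FGFR1. ID3 was 0.57 log2 units lower in SCNT than in FB (limma adjusted p = 0.0206) although SCNT 3 stood among the FB arrays. The call was lost without SCNT 1, SCNT 2 or FB 2, with limma adjusted p from 0.0557 to 0.0940, and without a filter on low values (limma adjusted p = 0.0748). The AI difference of -0.42 did not pass (limma adjusted p = 0.0713). It passed without AI 2 (limma adjusted p = 0.0487) and with only the 2 groups in the fit (limma adjusted p = 0.00969). The IVP difference of -0.28 did not pass (limma adjusted p = 0.209).

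**Figure D3:**
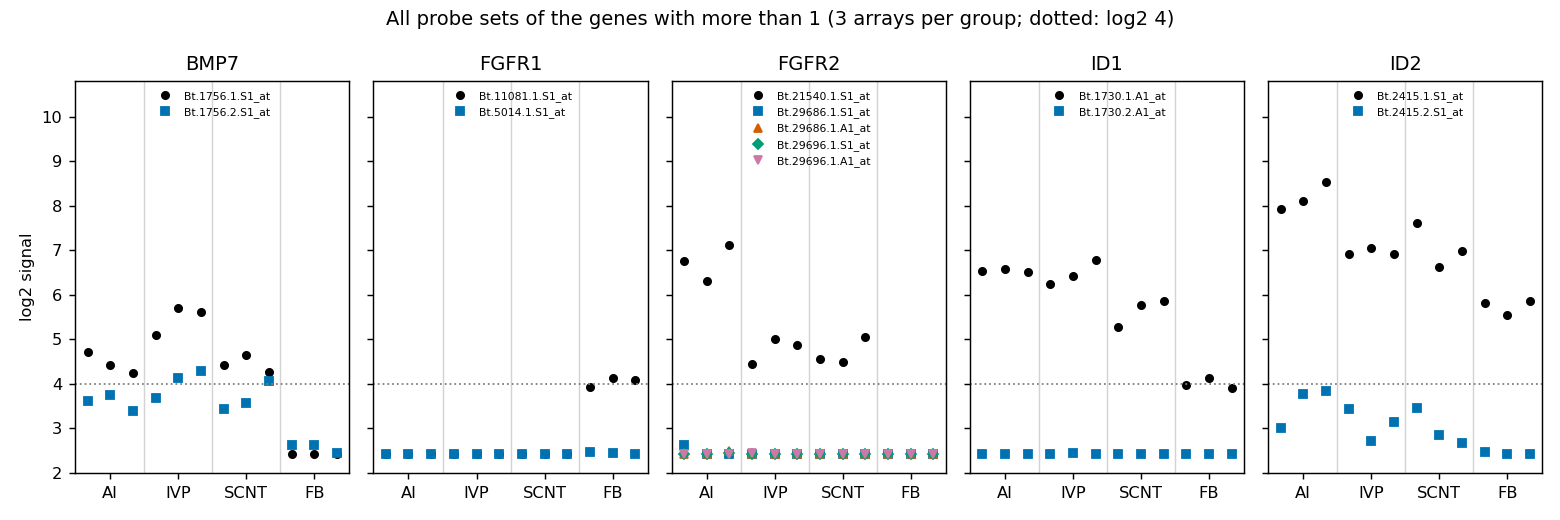
Log2 signal (vertical axis) of the probe sets of genes with more than 1 on the 12 arrays, 1 panel per gene, with 1 colour and symbol per probe set and a dotted line at log2 4. For FGFR2, 1 probe set leaves the lowest value and 4 stay at 2.42 to 2.62, and for ID1, ID2 and BMP7 the second probe set is dimmer than the first on every conceptus array.

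Beyond the members, FST and BAMBI were the genes of the wider pathways that passed between conceptus groups by their brightest probe set. Of a list of 140 genes of the FGF, BMP and NODAL or activin pathways, members left out, 65 had a probe set on the array and 19 could be tested by their brightest probe set, 6 of the FGF arm, 10 of the BMP arm and 3 of the NODAL and activin arm. In SCNT against AI 1 was higher and 1 lower and 17 did not pass, with a median difference of 0.05 beside 0.10 over all 4349 genes, of which 28.2% were called. In IVP against AI it was again 1 higher and 1 lower, with a median of -0.04 beside 0.06 and 17.6% of all genes called. In SCNT against IVP 0 of 19 passed in limma, 0 of them also had an unadjusted p under 0.05, and 0.437% of all genes passed. Whether these shares differ from those of all genes was not tested.

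The gene that rose in both was FST, whose product follistatin binds activins and some BMPs. It read 5.79, 5.26 and 6.17 in AI, 6.28, 6.96 and 7.63 in IVP, 7.03, 6.81 and 6.98 in SCNT, and 7.57, 7.42 and 7.42 in FB. SCNT arrays all lay above AI, and the lowest IVP array lay 0.12 above the highest AI array. FST was 2.29-fold higher in SCNT than in AI (95% interval 1.43 to 3.69, limma adjusted p = 0.0166), a call lost without AI 2 (limma adjusted p = 0.0608).

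FST was 2.32-fold higher in IVP than in AI (95% interval 1.45 to 3.74, limma adjusted p = 0.0220), a call lost without AI 1, AI 2 or IVP 3, with limma adjusted p from 0.0591 to 0.0732. The log2 difference was 1.27 with the spike-in signal as a covariate (limma adjusted p = 0.0504), 0.51 with the GAPDH gap (limma adjusted p = 0.298) and 0.30 without the 3 arrays of highest spike-in signal (limma adjusted p = 0.456). Neither FST call was made without a filter on low values (limma adjusted p = 0.162 in SCNT and 0.197 in IVP).

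BAMBI, which encodes a receptor-like protein without kinase activity that dampens BMP and activin signalling, fell in both. It read 4.97, 4.25 and 5.28 in AI, 3.43, 3.91 and 3.57 in IVP, 3.43, 3.43 and 3.93 in SCNT, and 2.67, 2.68 and 2.68 in FB. Only AI arrays stood above log2 4, and all AI arrays lay above all IVP and SCNT arrays. BAMBI was at least 1.78-fold lower in both, with log2 differences of -1.24 in SCNT (limma adjusted p = 0.00568) and -1.20 in IVP (limma adjusted p = 0.010). BAMBI entered the test through the 3 AI arrays alone, so the filter fixed the direction in which it could pass. Without a filter neither call was made (limma adjusted p = 0.0799 in SCNT and 0.117 in IVP), and with any AI array left out it could not be tested.

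FGF1, an FGF ligand gene with 12 probe sets on the array, gave no single answer. Its brightest probe set over the 9 conceptus arrays differed by 0.01 log2 units between SCNT and AI and by -0.06 between IVP and AI. The brightest over all 12 arrays is another probe set, given here after its values were seen, which read 5.95, 6.22 and 5.88 in AI, 4.02, 4.37 and 4.37 in IVP and 5.26, 4.12 and 3.90 in SCNT. On that probe set FGF1 differed by -1.59 in SCNT against AI (limma adjusted p = 0.00353) and by -1.76 in IVP against AI (limma adjusted p = 0.00311). The IVP call was lost without the 3 arrays of highest spike-in signal (limma adjusted p = 0.0677). Without a filter on low values both calls were lost (limma adjusted p = 0.0649 in SCNT and 0.0685 in IVP). In AI against FB 4 FGF1 probe sets were tested. The first differed by 1.48, the second by -3.20, and the others by -3.38 and -1.20, so 3 of 4 were lower in AI. The probe set at 1.48 lay below log2 4 on all FB arrays, and that at -3.38 passed it on the FB arrays alone. For these the filter fixed the direction in which they could pass. That at -1.20 passed log2 4 on the FB arrays and AI 1 alone. The direction of FGF1 is uncertain.

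The other tested pathway genes did not pass between conceptus groups. In SCNT against AI the receptor genes ACVR1 and BMPR1A differed by -0.24 and 0.05 log2 units, SMAD4, the common mediator, by -0.40, SMAD2 of the NODAL branch by 0.08, and the E protein genes TCF3 and TCF12 by -0.01 and -0.17. The ligand gene BMP2 differed by -0.11, and the kinase genes MAP2K1 and MAP2K2 by 0.04 and 0.14.

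**Figure D4:**
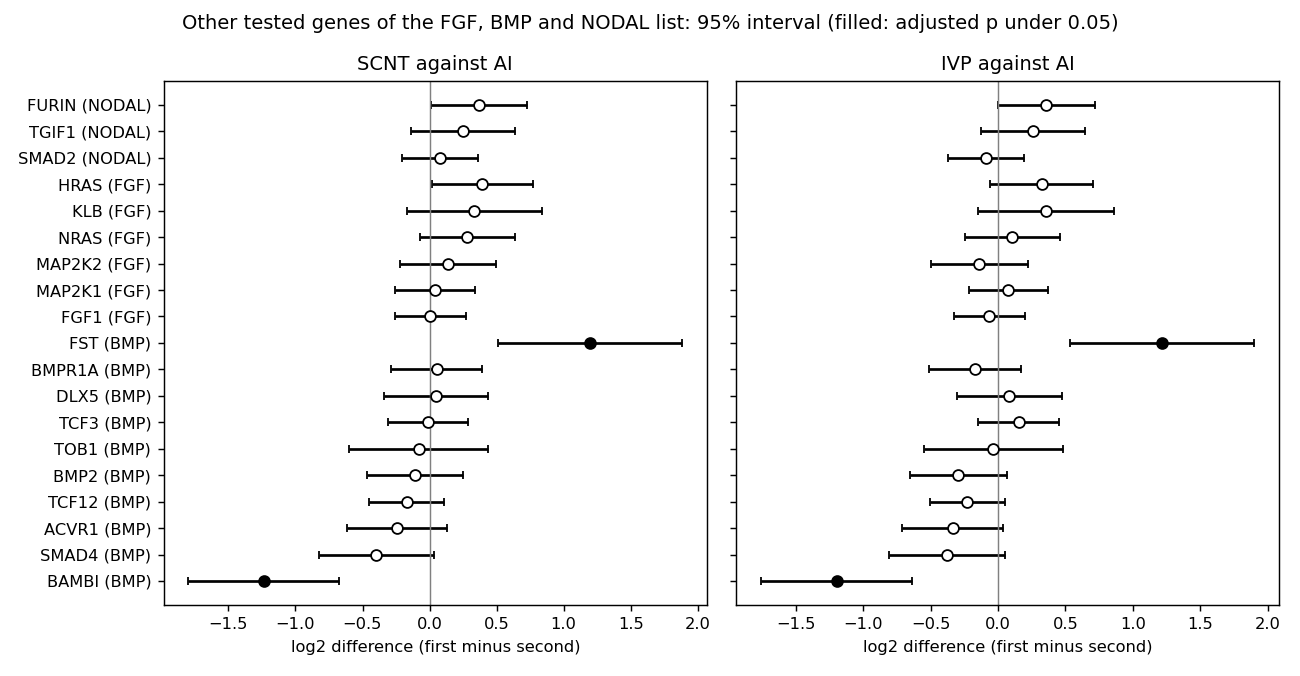
Log2 differences (horizontal axis) of the 19 pathway genes tested in the conceptus fit, with the arm of each in brackets (NODAL stands for the NODAL and activin arm), for SCNT against AI and IVP against AI, with 95% intervals from limma, a line at 0 and filled points where the adjusted p was under 0.05. FST, at 1.20 and 1.22, and BAMBI, at -1.24 and -1.20, are the genes that passed in both comparisons.

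Against FB 27 pathway genes were tested by their brightest probe set. In AI 7 were higher and 16 lower, with 75.9% of all genes called, in IVP 7 and 16, with 77.6% called, and in SCNT 7 and 15, with 79.0% called. Their median difference was -0.60 in AI, -0.47 in IVP and -0.53 in SCNT, beside 0.11, 0.19 and 0.23 over all genes. Whether the pathway genes differ from all genes in this was not tested. The convertase gene FURIN, whose product cleaves pro-forms of NODAL and BMPs, was at least 7.19-fold higher in AI, at least 9.22-fold in IVP and at least 9.29-fold in SCNT. KLB, a co-receptor gene for endocrine FGFs, was at least 5.21-fold, 6.66-fold and 6.56-fold higher in the same order. Its size depended on the probe set, with log2 differences in AI of 3.91 on this one and 2.88 and 1.20 on the others tested. The heparan sulfate proteoglycan gene GPC4 was at least 11.6-fold lower, and the receptor gene TGFBR2 at least 4.56-fold lower, in each conceptus group.

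The activin subunit gene INHBA and the ligand gene TGFB2 were at least 4.06-fold and at least 4.07-fold lower in each conceptus group than in FB. MSX1, a homeobox gene downstream of BMPs, was at least 6.08-fold lower in AI and at least 7.10-fold lower in IVP and in SCNT. GPC4, TGFBR2, INHBA and TGFB2 lay at background on all 9 conceptus arrays and entered the test through the 3 FB arrays alone, so the filter fixed the direction in which they could pass. FURIN and KLB lay at background on the 3 FB arrays, so the filter fixed theirs too. MSX1 passed log2 4 on the FB arrays and AI 3 alone, so its direction was fixed in IVP and SCNT. FGF1 on its brightest probe set over all 12 arrays was 31.3-fold lower in IVP and 27.8-fold lower in SCNT, with the disagreement between its probe sets given above.

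The genes whose levels ran most alike over the 9 conceptus arrays are given as a description, among 4348 other genes and without a test, since the points share groups and arrays. FGFR2 ran most like TUBB2B, a tubulin gene (Pearson's r = 0.985), DOK4 (0.983) and DAZAP2 (0.981). After group means were removed these correlations were 0.816, 0.782 and 0.749. DOK4 had group means of 5.40 in AI, 2.99 in IVP and 2.91 in SCNT, an order like that of FGFR2.

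CRIPTO ran most like SHCBP1 (r = 0.981), the exosome subunit gene EXOSC9 (0.977) and ALDH4A1 (0.971), the last of which had means of 2.95 in AI, 4.46 in IVP and 4.33 in SCNT. After group means were removed these correlations were 0.699, 0.595 and 0.662. ID1 ran most like PROS1 (0.950), the adducin gene ADD3 (0.935) and AHSG (0.932), whose means in SCNT were the lowest of the 3 groups. ID2 ran most like the RNA-binding protein gene CIRBP (0.967), LDOC1 (0.958) and C3H1orf43 (0.958). BMP7 ran most like RPS29 (0.946), ENTPD6 (0.939) and SERPINH1 (0.931), with 0.748, 0.646 and 0.794 after group means were removed. RPS29 itself hardly changed, with means of 12.34 in AI, 12.40 in IVP and 12.33 in SCNT. ID3 ran most like PAFAH1B1 (0.928), CYBC1 (0.852) and RHPN2 (0.842).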

How the data were processed

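Total RNA of 9 conceptus samples and 3 fibroblast samples was biotin-labelled and hybridized to Affymetrix bovine arrays, per the labels' protocols. The deposited values are log2 signals made with GCRMA, with limma named as a second tool, per the submitters' processing notes; neither their versions nor whether all arrays were normalized together is stated there. They ran from 2.42 to 13.66. Control probe sets were left out, which left 24016. Gene symbols are those of the array annotation.

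A probe set was tested if it passed log2 4 on 3 or more arrays. The models (limma 3.58.1, R 4.3.3) had 1 coefficient per group and took in 6892 probe sets for the 9 conceptus arrays, and 8164 for all 12 arrays, used for FB. Tests were two-sided, adjusted by Benjamini and Hochberg over all probe sets of a comparison, with calls at an adjusted p under 0.05. For folds, arrays below log2 4 were set to 4 in a group whose mean lay below it. For pathway genes the brightest probe set was used, and up to 6 called genes without overlap were named per comparison. The procedure was tested on simulated data. The members and lists were chosen with earlier results of these data known. Spike-in and GAPDH covariates and the omission of the 3 arrays of highest spike-in signal were added after seeing the data. The number of arrays limits precision.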

Additional observations from a re-analysis of the deposited data

How the results depend on the processing

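The calls of CRIPTO and FGFR2 against AI held under all settings tried. In SCNT against AI, testing without a filter on low values left 2 member probe sets, 984 of all probe sets and 0 pathway genes called, with ID1 at an adjusted p of 0.0556 and ID2 at 0.0837 in limma. A filter at log2 5 and the omission of the 3 arrays of highest spike-in signal each left 1 pathway gene, and a threshold of 0.01 left 918 and 1. Leaving out 1 array gave 1167 to 1570 probe sets, the lowest without SCNT 2, and 0 to 2 pathway genes.

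In IVP against AI, no filter left 2 member probe sets (BMP7 had an adjusted p of 0.0657 and ID2 of 0.0884 in limma), 484 of all and 0 pathway genes, the GAPDH covariate 2, 502 and 1, and the omission of the 3 arrays 2, 415 and 0. The filter at log2 5 and the spike-in covariate each left 1 pathway gene, and the threshold of 0.01 left 487 probe sets and 1 pathway gene. Leaving out 1 array gave 671 to 1069 probe sets, a loss of over 1.5 times without AI 1, AI 3, IVP 1 or IVP 3, and 0 to 2 pathway genes.

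In SCNT against IVP, the member call was lost (0) under quantile normalization, values floored at log2 4 and a threshold of 0.01 (6 of all probe sets), without a filter (7), with the spike-in covariate (5), the GAPDH covariate (8) and without the 3 arrays (3), while all 12 arrays in the fit called 2 members and 127 probe sets. Leaving out 1 array gave 0 to 1 members and 7 to 32 probe sets, with the member call lost without any array but IVP 1. Against FB, no filter gave 37 pathway genes in AI and 35 in IVP, and leaving out 1 array gave 15 to 24 in IVP and 14 to 23 in SCNT, where fewer genes were tested with 2 FB arrays. Where no cause is named, the cause was not tested.

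Replicate numbers did not pair the arrays (correlations of same-numbered deviations from -0.15 to 0.21). With the replicate number as a block, 4, 4 and 0 members were called in SCNT against AI, IVP against AI and SCNT against IVP, where 23 of all probe sets were, and BMP7 had an adjusted p of 0.0933 in limma. No other count of members changed by over 1.5 times.

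Differences that changed sign were all uncalled. For BMP7 in SCNT against AI these were 0.059 with the spike-in covariate and -0.12 to 0.12 with 1 array left out. For ID3 they were -0.41 to 0.034 in SCNT against AI and -0.023 with the GAPDH covariate in IVP against AI, and for ID1 in IVP against AI -0.20 to 0.065. In SCNT against IVP they were -0.15 to 0.35 for ID2, -0.25 to 0.43 for FGF1 on its brightest probe set over all 12 arrays, and for FGFR2 -0.25 to 0.040, 0.11 with the GAPDH covariate and 0.25 without the 3 arrays.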

Other observations

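TGFB3, a ligand gene of the TGF-beta branch on the pathway list, was too low to be tested and is named after its values were seen. It read 3.63, 2.94 and 4.47 in AI and 2.42 to 2.53 on the IVP and SCNT arrays, with 2.56 to 2.62 in FB. Only AI 3 passed log2 4.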
